A study of Mus musculus with 27 samples.

Results

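The Wnt ligands, receptors and antagonists of the mouse were followed through the RNA and chromatin data of a study of the transcription factor Nkx2.2 and its SD domain. Members were every row whose gene symbol begins with Wnt, Fzd, Sfrp or Dkk and a digit, without opposite-strand transcripts, together with Frzb, Wif1, Lrp5 and Lrp6. This rule found 41 genes in each count table: 41 of 55536 rows for embryonic pancreas, of 26487 rows for islets and of 39017 rows for neural progenitors. They comprise 19 ligands (Wnt1 to Wnt16), 12 receptors (10 frizzleds and the co-receptors Lrp5 and Lrp6) and 10 secreted antagonists.

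RNA had been sequenced from whole pancreas at E15.5 of 3 wildtype controls and 4 embryos carrying the Nkx2.2SDmut allele (SDmut). Islets at 8 weeks gave 2 control libraries and 3 with the same mutation in beta cells (betaSDmut), and islets at 4 weeks 2 control libraries and 2 labelled betaKO. The Cre driver and the zygosity of these animals are not given in the sources used here, and the molecule given for the 4-week libraries is genomic DNA, while the count table treats them as RNA. Motor neuron progenitors were made from mouse embryonic stem cells and collected on day 4. They comprised 3 untreated libraries of the iNkx2.2 line (pMN), 3 libraries of that line given doxycycline (1 µg/ml, about 16 h) to express FLAG-tagged wildtype Nkx2.2 (iNkx2.2), and 2 equally induced libraries of a second line carrying the FLAG-tagged SD mutant (iSDmut). The uninduced iSDmut line was not analysed here, so the line and the mutation cannot be told apart in comparisons with iSDmut. As pMN was untreated, doxycycline and the induced protein cannot be told apart in comparisons with pMN. Binding of Nkx2.2 was measured by chromatin immunoprecipitation and sequencing (ChIP-seq) in MIN6, a mouse insulinoma line with features of beta cells, with 2 replicates.

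Wnt proteins are lipid-modified secreted ligands that bind frizzled receptors. With Lrp5 or Lrp6 as co-receptor they stabilise beta-catenin, and with other partners they act on cell polarity and movement. Sfrp proteins, Frzb and Wif1 bind the ligands outside the cell, whereas Dkk1 and some of its relatives bind the co-receptors. In pancreas the pathway is known for its part in growth and mesenchymal signalling, and in the neural tube for patterning and progenitor growth.

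Total counts per library ranged from 38447596 to 41840638 in embryonic pancreas. The ranges were 12398041 to 32385406 in islets and 17757991 to 46840701 in progenitors. Except where stated otherwise, values are counts-per-million (CPM) scaled by edgeR's TMM factors, and no replicates were identical. Nkx2-2 was at 103 and 76.2 CPM in 4-week controls and at 92.9 and 64.6 CPM in the libraries labelled betaKO, so its count did not separate these groups. In progenitors it was at 5.40 to 11.6 CPM in pMN, 343 to 378 CPM in iNkx2.2 and 245 to 248 CPM in iSDmut. Summed markers of the labelled tissues were present: 164617 to 238378 CPM over 7 beta-cell genes in islets, 12614 to 39093 CPM over 10 acinar genes in embryonic pancreas and 561 to 673 CPM over 4 progenitor genes in pMN. The labels do not say that replicates were separate animals or cultures, so p-values measure the spread between libraries. In these bulk samples, fewer cells of a type and less RNA per cell cannot be told apart.

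Each tissue expressed a different leading set of members, compared here per length. Islets were dominated by 1 ligand and by a pair of antagonists. In the 8-week controls, Wnt4, a ligand known from kidney and gonad development, was at 41.8 and 45.1 FPKM (fragments scaled to gene length and library size, as deposited by the authors). Next came Wnt5b at 1.09 and 0.893 FPKM and Wnt9a at 0.486 and 0.532 FPKM, far below Wnt4. The antagonist Frzb, also called Sfrp3, was at 142 and 141 FPKM, and its relative Sfrp5 was at 54.5 and 69.0 FPKM. Dkk3, a divergent Dkk relative, followed at 0.691 and 2.172 FPKM. Among receptors Lrp6 was at 15.8 and 15.9 FPKM, Lrp5 at 9.33 and 9.24 FPKM and Fzd3 at 8.37 and 8.76 FPKM. The 4-week controls had the same leading ligands and receptors, with Wnt4 at 51.3 and 44.5 FPKM, Frzb at 130 and 160 FPKM and Sfrp5 at 61.3 and 50.1 FPKM. Dkk2 came next among their antagonists, at 1.77 and 1.70 FPKM. Of the 41 members, 11 averaged at least 1 FPKM in 8-week controls and 15 in 4-week controls, and 6 were listed at 0 in both libraries of each group.

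Progenitors and embryonic pancreas were richer in frizzleds and in Sfrp1 and Sfrp2. In pMN progenitors Fzd7 was at 48.1 to 55.0 FPKM, Fzd2 at 33.0 to 37.6 FPKM and Fzd3 at 21.4 to 25.9 FPKM. The antagonist Sfrp2 was at 53.2 to 83.6 FPKM, Sfrp1 at 28.2 to 31.6 FPKM and Dkk3 at 2.48 to 4.58 FPKM. Ligands were lower: Wnt5b at 5.37 to 7.43 FPKM, Wnt7a at 3.57 to 4.68 FPKM and Wnt5a at 2.82 to 5.04 FPKM. Those 3 ligands are best known for signalling through polarity pathways (Wnt5a, Wnt5b) and in the spinal cord and brain (Wnt7a). After induction of wildtype Nkx2.2, Wnt5b (4.74 to 6.93 FPKM), Wnt5a (2.74 to 3.36 FPKM) and Wnt9a (1.41 to 2.81 FPKM) led the ligands, and Frzb entered the leading antagonists at 8.28 to 8.48 FPKM.

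In embryonic controls, for which FPKM were computed here from counts and GENCODE exon lengths, Sfrp1 was at 28.4 to 65.0 FPKM and Sfrp2 at 14.9 to 59.8 FPKM. Fzd2 was at 19.8 to 36.0 FPKM, Lrp5 at 15.9 to 21.2 FPKM and Lrp6 at 14.9 to 17.0 FPKM. Wnt4 (4.81 to 6.79 FPKM), Wnt2b (4.15 to 5.45 FPKM) and Wnt7b (3.82 to 5.34 FPKM) led the ligands, and Dkk2 came next among antagonists at 2.51 to 6.16 FPKM. The level plot sets these control groups side by side, although the lengths behind them differ: with reference lengths the 4-week control means were 93.6 FPKM for Frzb and 31.7 FPKM for Wnt4, against 145 and 47.9 FPKM as deposited. At least 1 FPKM on average was reached by 24 members in embryonic controls and by 20 in pMN.

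**Figure D1:**
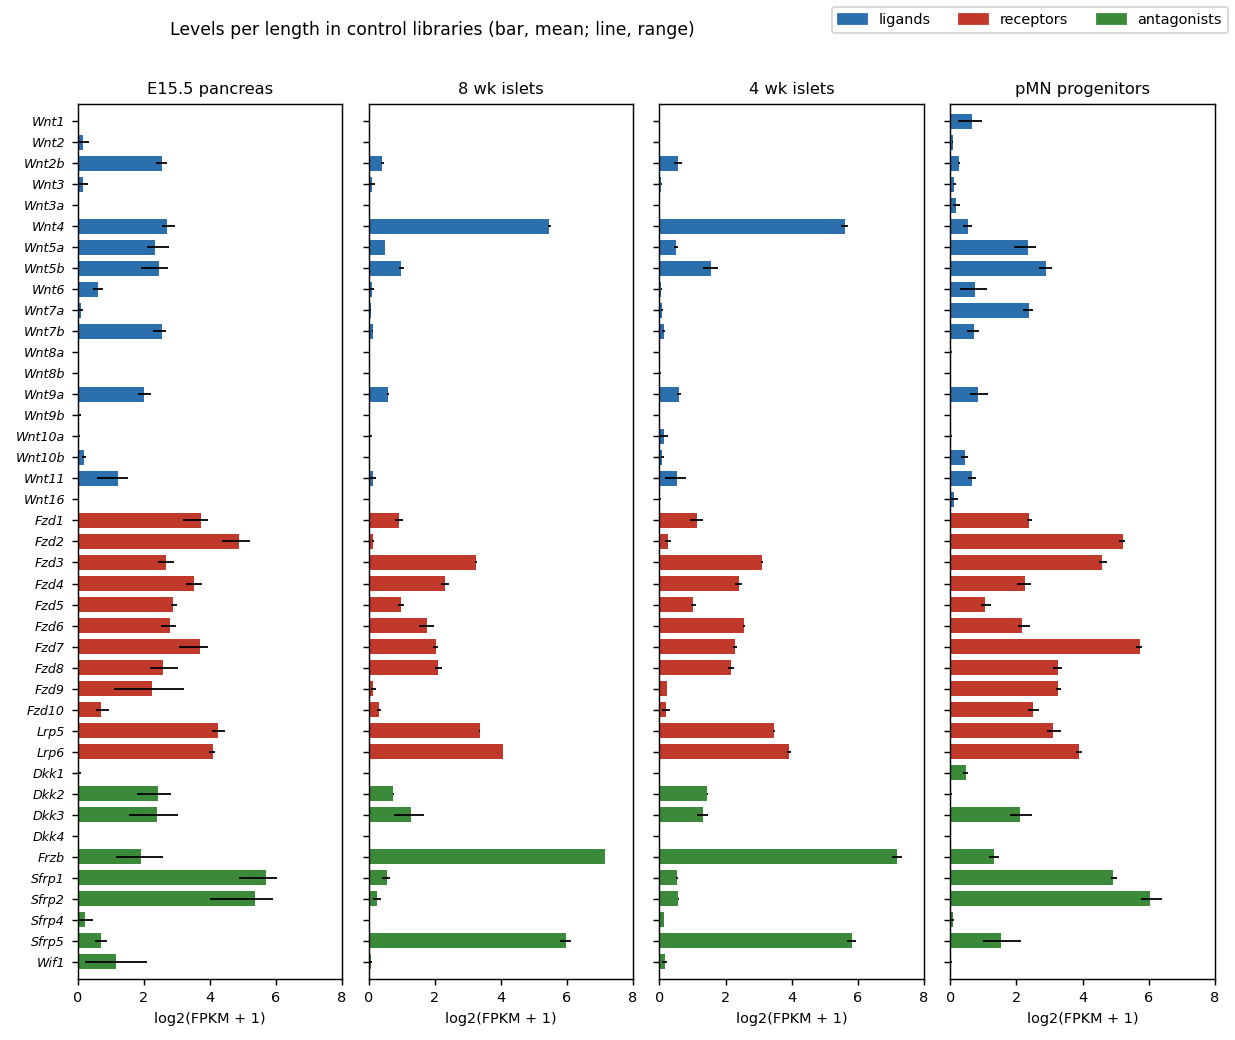
Levels of the 41 members per length in control libraries of each tissue; the x axis is log2(FPKM + 1), bars are group means and lines span the libraries. Frzb, Sfrp5 and Wnt4 stand out in islets (141, 54.5 and 41.8 FPKM or more at 8 weeks), Fzd2, Fzd7, Sfrp1 and Sfrp2 in pMN progenitors.

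Nkx2.2 binding events in MIN6 cells were searched inside each member gene and within 100 kb of its start (GENCODE vM21, GRCm38, the mm10 build of the submitters' processing notes). Of 10749 events, 25 lay at 19 members, and 17 of these belonged to the authors' final set of 6473 sites. A final site lay at 14 of 41 members (34.1%), beside 42.2% of all 21938 protein-coding genes under the same rule. For 4 of the final sites the nearest protein-coding start was that of the member itself, and these were at Wnt9a, Wnt11, Fzd5 and Lrp6. Only 1 event lay inside a member, in an intron of Wnt9a on chromosome 11, 22991 bases after the gene's start (the gene runs from 59306928 to 59333552 on the plus strand). It held 382 and 305 reads in the replicates and ranked 222 of 10749 by mean CPM. The final site near Lrp6 lay 1950 bases upstream of its start and held 76 and 60 reads. The highest count at any member was upstream of Dkk3, at position -54479 from its start (393 and 312 reads, rank 216), where the start of Mical2 is nearer, 12320 bases away. No event lay within the searched range of Sfrp2, Fzd6, Frzb, Fzd10, Sfrp1 or Wnt7a, members that changed in the comparisons that follow.

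The reference sequence of 3 final sites is shown because these are the site inside Wnt9a, the site closest to a member's start and the site with the most reads. Each is 300 bases of GRCm38, plus strand, centred on the event, with the Nkx2.2-type core AAGTG, or CACTT for the other strand, in capitals. The core was searched on both strands, as was the longer form TNAAGTG, of which every match also contains the core.
Wnt9a intron, chr11:59329770-59330069: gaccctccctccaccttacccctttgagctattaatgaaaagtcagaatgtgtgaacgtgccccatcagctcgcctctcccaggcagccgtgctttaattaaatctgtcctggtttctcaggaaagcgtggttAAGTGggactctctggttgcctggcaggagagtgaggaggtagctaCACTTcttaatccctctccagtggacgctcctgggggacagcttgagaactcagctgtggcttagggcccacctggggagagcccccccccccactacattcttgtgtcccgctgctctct
Lrp6 upstream, chr6:134568766-134569065: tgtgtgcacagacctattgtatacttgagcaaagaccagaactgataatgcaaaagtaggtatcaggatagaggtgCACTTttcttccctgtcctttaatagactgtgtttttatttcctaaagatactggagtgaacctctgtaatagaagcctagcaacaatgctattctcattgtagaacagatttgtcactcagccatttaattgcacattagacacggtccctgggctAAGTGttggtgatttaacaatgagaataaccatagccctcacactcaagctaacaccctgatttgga
Dkk3 upstream, chr7:112213387-112213686: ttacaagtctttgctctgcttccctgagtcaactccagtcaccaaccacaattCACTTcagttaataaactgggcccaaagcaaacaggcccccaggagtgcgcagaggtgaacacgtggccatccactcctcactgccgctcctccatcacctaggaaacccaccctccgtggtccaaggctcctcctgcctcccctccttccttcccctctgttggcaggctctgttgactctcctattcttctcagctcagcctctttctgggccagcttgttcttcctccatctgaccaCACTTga
The Wnt9a window holds the core at bases 134 to 138 on the plus strand, where it extends to TNAAGTG and its middle is 14 bases before the event, and at bases 180 to 184 on the other strand. In the Lrp6 window the core occurs at bases 77 to 81 and 234 to 238, with no match to the longer form. In the Dkk3 window both cores, at bases 54 to 58 and 294 to 298, extend to the longer form. Among the 17 final sites at members, 58.8% held AAGTG and 23.5% TNAAGTG, beside 53.6% and 20.1% of all 6473 final sites. A match describes the letters of a window and does not show which bases were bound.

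In 8-week islets, the mutation of the SD domain in beta cells was accompanied by changes in 1 ligand, 2 receptors and 2 antagonists. The ligand Wnt9a, the frizzled Fzd6 and the antagonist Sfrp2 rose, and the co-receptor Lrp5 and the antagonist Frzb fell. Of the 41 members 23 passed the low-count filter, and edgeR's quasi-likelihood test called 5 of them at an adjusted p under 0.05, beside 7.94% of the 15413 genes tested. Of the 5, 3 were higher and 2 lower, where 4.07% of all genes were higher and 3.87% lower. The median log2 fold change of the 23 was 0.03, beside 0.01 over all genes. With so few libraries, groups that do not overlap are common: 45.7% of all genes tested at 8 weeks. Over 9 alternative fits Wnt9a kept its call in 9, Sfrp2 and Lrp5 in 7, and Fzd6 and Frzb in 6. The fits without the first or the second 8-week control leave 1 control library, and far fewer of all genes were called there. The heat map of fold changes shows all members and comparisons.

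**Figure D2:**
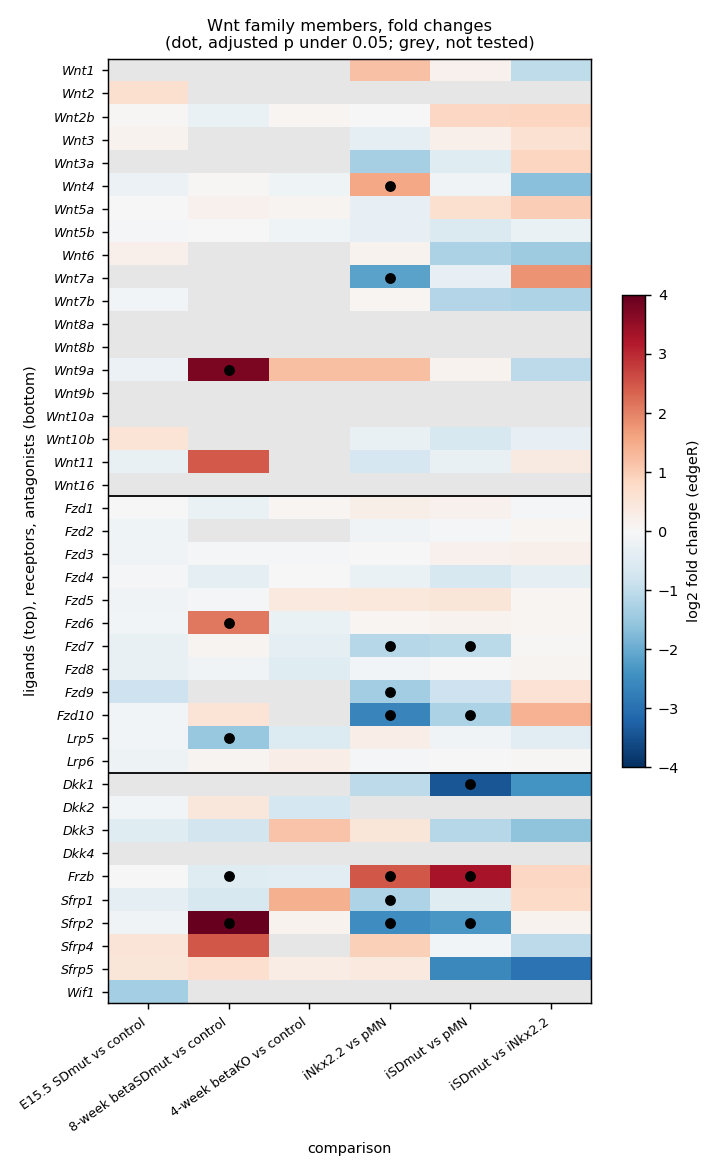
Fold changes of the 41 members (rows, by role) in 6 comparisons (columns); colour is the edgeR log2 fold change, the scale ends at 4 in either direction, dots mark an adjusted p under 0.05 and grey cells were not tested. Dots number 5 for betaSDmut against 8-week controls, 8 for iNkx2.2 and 5 for iSDmut against pMN, and 0 elsewhere.

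Wnt9a, a ligand known from joint and blood stem cell development, was at 1.29 and 1.34 CPM in the 8-week controls. It was at 18.3, 18.1 and 18.1 CPM in betaSDmut islets, from 439 to 499 counts per library against 27 and 31. The groups were far apart and the mutant libraries nearly equal. The log2 fold change was 3.78 (SE 0.11, edgeR adjusted p 0.000345). Per length it ranked below Wnt4 alone among the ligands of betaSDmut islets, at 7.10 to 7.35 FPKM against 37.5 to 59.2 FPKM for Wnt4. Wnt4 did not pass the test, at 124 and 133 CPM in controls and 114, 114 and 167 CPM in mutants (log2 fold change 0.03, SE 0.20, edgeR adjusted p 0.931). Wnt11, a ligand of polarity signalling, was at 0.0477 and 0.347 CPM in controls and 0.833, 0.991 and 1.56 CPM in mutants. Its groups did not overlap, but its counts were low and its log2 fold change of 2.45 (SE 0.71) did not pass (edgeR adjusted p 0.0951). The other tested ligands, Wnt2b, Wnt5a and Wnt5b, had log2 fold changes from -0.25 to 0.17 with overlapping groups.

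Among receptors, Fzd6, a frizzled known for planar polarity of hair and skin, was at 9.40 and 6.07 CPM in controls and 28.4, 43.6 and 28.9 CPM in betaSDmut islets. Every mutant library lay above both controls, and the log2 fold change was 2.12 (SE 0.29, edgeR adjusted p 0.0163). Lrp5, a co-receptor of the beta-catenin branch, moved the other way, from 38.8 and 37.1 CPM to 14.0, 15.2 and 11.0 CPM. It fell by 1.51 on the log2 scale (SE 0.14, edgeR adjusted p 0.00494), again without overlap. Its partner Lrp6 was at 94.6 and 97.6 CPM in controls and 112, 106 and 95.3 CPM in mutants, with overlapping groups (log2 fold change 0.11, SE 0.083). Fzd3, the most abundant frizzled in control islets, was also alike in range, at 84.9 and 88.3 CPM against 88.4, 83.6 and 76.0 CPM. The remaining 6 tested receptors had log2 fold changes from -0.36 (Fzd4) to 0.56 (Fzd10), none past the threshold, and Fzd2 and Fzd9 were too low to test.

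Sfrp2, a secreted frizzled-related antagonist, was almost absent from 8-week control islets, at 0.191 and 0.477 CPM from 4 and 11 counts. It was at 7.25, 11.2 and 7.94 CPM in betaSDmut islets, from 174 to 272 counts. No library overlapped, and the log2 fold change was 4.67 (SE 0.42, edgeR adjusted p 0.00483). The deposited FPKM were 0.101 and 0.308 in controls and 1.048, 1.768 and 1.061 in mutants, again without overlap but closer together than the CPM. Sfrp2 exons overlap the opposite-strand gene Gm26771, whose part was not tested. Sfrp2 is also a gene of mesenchymal cells, and the summed level of 10 mesenchymal markers was 230 to 294 CPM in controls and 139 to 193 CPM in mutants. All 10 markers were in the table, and 1 of 10 was at 0 in mutants 1 and 3. Frzb, the most abundant antagonist, was at 316 and 311 CPM in controls and 232, 207 and 235 CPM in mutants. It fell by 0.49 on the log2 scale (SE 0.0904, edgeR adjusted p 0.0323), without overlap. Sfrp5 was at 78.5 and 98.8 CPM in controls and 181, 132 and 112 CPM in mutants, with no overlap but no call (log2 fold change 0.67, SE 0.23, edgeR adjusted p 0.139). Sfrp4 rested on 1 and 2 counts in controls and on 13, 3 and 15 counts in mutants (0.0477 and 0.0867 against 0.541, 0.124 and 0.544 CPM, edgeR adjusted p 0.158). Sfrp1, Dkk2 and Dkk3 had log2 fold changes of -0.64, 0.47 and -0.72 and did not pass. The 7 beta-cell markers summed to 232831 to 238378 CPM in controls and 196782 to 214749 CPM in mutants. Markers of delta cells, 2 genes, summed to 1942 to 2951 CPM in controls and 3240 to 4903 CPM in mutants, and those of acinar cells, 10 genes, to 4507 to 7463 and 534 to 5949 CPM. The part of these cell types in the results was not tested.

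**Figure D3:**
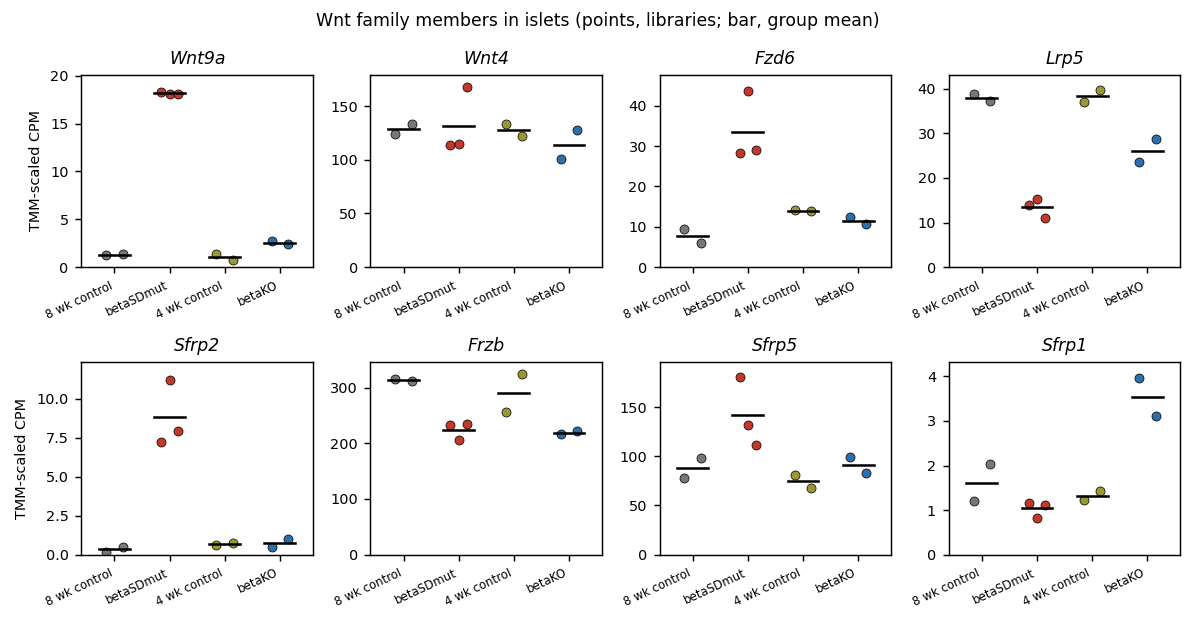
TMM-scaled CPM (y axis, from 0) of 8 members in each islet library, by group on the x axis; points are libraries and bars are group means. Wnt9a is at 18.1 to 18.3 CPM in betaSDmut islets and below 3 CPM in every other library, and Sfrp2 and Fzd6 are likewise highest in betaSDmut.

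The 4-week comparison asked whether the libraries labelled betaKO differ from their controls. Of the 41 members 20 passed the filter, and edgeR called 0 of them, beside 1.56% of 14942 genes (0.810% higher, 0.750% lower). Of the 20, 6 had an unadjusted p under 0.05, beside 15.2% of all genes, and DESeq2 also called 0, beside 5.15%. Wnt9a was at 1.43 and 0.776 CPM in 4-week controls and at 2.72 and 2.42 CPM in the libraries labelled betaKO. These groups did not overlap, as for 47.5% of all genes tested at 4 weeks, and the log2 fold change was 1.19 (SE 0.44, edgeR adjusted p 0.290). Sfrp1 had the largest fold change, from 1.22 and 1.43 CPM to 3.97 and 3.12 CPM (log2 1.43, SE 0.35, edgeR adjusted p 0.137). Sfrp1 is also known from mesenchymal cells. The 10 mesenchymal markers summed to 253 to 261 CPM in these controls and 381 to 472 CPM in the libraries labelled betaKO, with 1 of 10 at 0 in 1 library of each group, and their part in the Sfrp1 values was not tested. The 7 beta-cell markers summed to 207114 to 211207 CPM in these controls and 164617 to 176655 CPM in the libraries labelled betaKO. Markers of other cell types were higher there without overlap: 24964 to 29166 against 50575 to 62403 CPM for alpha cells, 2583 to 2751 against 6607 to 8225 CPM for PP and epsilon cells, 1786 to 3323 against 4304 to 5675 CPM for delta cells, and 3437 to 6273 against 7809 to 24003 CPM for acinar cells. Their part in the 4-week values was not tested. Dkk3 was at 4.16 and 2.63 CPM in controls against 5.09 and 9.99 CPM (log2 fold change 1.13, edgeR adjusted p 0.299). Lrp5 was at 37.1 and 39.6 CPM in controls and 23.4 and 28.8 CPM in the libraries labelled betaKO. Its log2 fold change of -0.55 (SE 0.13) had an edgeR adjusted p of 0.135. Frzb was at 256 and 324 CPM against 216 and 222 CPM (log2 fold change -0.41, edgeR adjusted p 0.220). Fzd6 was at 14.1 and 13.9 CPM in controls and 12.4 and 10.8 CPM in the libraries labelled betaKO, and Sfrp2 rested on 21 and 12 counts against 8 and 13 counts (log2 fold change 0.13).

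The difference between the 2 islet effects was tested in a model of all 9 islet libraries. Age and genotype differ together in this contrast and cannot be told apart. Of 24 members tested edgeR called 3, beside 1.21% of 15995 genes (0.644% higher, 0.569% lower). These were Wnt9a, Sfrp2 and Fzd6, each with the higher effect in betaSDmut. The differences in log2 fold change were 2.62 for Wnt9a (SE 0.34, edgeR adjusted p 0.0165), 4.55 for Sfrp2 (SE 0.67, 0.0243) and 2.39 for Fzd6 (SE 0.36, 0.0274). For Lrp5 the difference was -0.95 (SE 0.21, edgeR adjusted p 0.0890), and for Frzb it was -0.08 (SE 0.16, edgeR adjusted p 0.889). Over 13 alternative fits the differences ranged from 2.06 to 2.93 for Wnt9a, 4.06 to 5.36 for Sfrp2 and 2.11 to 2.74 for Fzd6. The calls held in 8, 8 and 6 of these fits. Without the first or the second 8-week control, which leaves 1, the calls were lost, as were most calls over all genes. Without betaSDmut 2 or with the replicate block 1 member was called, beside 0.415% and 0.544% of all genes. Fits without 1 of the 4-week libraries, which also leave 1 in a group, lost calls too.

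In the authors' deposited table for 8-week islets, 16 members are listed and 5 are called, and all 5 were among those called here. There the log2 fold change is 3.75 for Wnt9a, 4.70 for Sfrp2, 2.12 for Fzd6, -1.53 for Lrp5 and -0.49 for Frzb. The authors' deposited table of betaSDmut, betaKO and control lists 10 members. It names a single control without an age, so its control libraries may differ from those of the age-matched comparisons here. It calls 2 lower in betaKO than in control, Lrp5 at -0.54 and Frzb at -0.44, which did not pass in the 4-week comparison here. Wnt9a in that authors' deposited table is 1.08 for betaKO against control, not called, and -2.76 for betaKO against betaSDmut, called. For betaKO against betaSDmut it also calls Lrp5 (0.997), but not Fzd6 (-1.45), and Sfrp2 is not listed. For betaSDmut against control it calls Sfrp5 higher (0.77), which was not called here at 8 weeks. The authors' deposited table of changed genes with bound sites includes Wnt9a, with the intronic event described above, and Lrp6, with the event 1950 bases from its start.

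The wider pathway was followed with 68 genes chosen by role, from ligand release to transcriptional targets. In 8-week islets edgeR called 5 of the 52 tested (9.62%), 3 higher and 2 lower, near the 7.94% of all genes. DESeq2 called 12, beside 13.2% of all genes. Porcn, the acyltransferase that makes Wnt proteins secretable, rose from 7.35 and 8.67 CPM to 11.7, 11.8 and 11.5 CPM (log2 fold change 0.54, edgeR adjusted p 0.0468). Apcdd1, a membrane antagonist, rose from 3.341 and 3.51 CPM to 6.12, 7.93 and 5.62 CPM (0.93, edgeR adjusted p 0.0488), and Myc, a growth regulator, from 5.30 and 4.25 CPM to 14.9, 11.6 and 8.52 CPM (1.28, edgeR adjusted p 0.0410). Kremen1, a receptor for Dkk proteins, fell from 37.8 and 40.0 CPM to 24.8, 29.3 and 23.8 CPM (-0.59, edgeR adjusted p 0.0278). Shisa2, which retains frizzleds inside the cell, fell from 8.35 and 8.02 CPM to 3.87, 3.22 and 3.81 CPM (-1.17, edgeR adjusted p 0.0137). At 4 weeks edgeR called 0 of 52 (9 with an unadjusted p under 0.05, DESeq2 3), beside 1.56% of all genes (15.2% unadjusted, DESeq2 5.15%). The difference of the islet effects gave 0 of 54 (7 with an unadjusted p under 0.05, DESeq2 5). Over all genes these shares were 1.21%, 13.7% and 4.06%.

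Members of all roles differed between motor neuron progenitors induced to express wildtype Nkx2.2 and untreated pMN. Frzb and Wnt4 rose, and the receptors Fzd7, Fzd9 and Fzd10, the antagonists Sfrp1 and Sfrp2 and the ligand Wnt7a fell. Of 32 members tested edgeR called 8, beside 9.49% of 15653 genes. Of the 8, 2 were higher and 6 lower, where 4.71% of all genes were higher and 4.78% lower. The median log2 fold change of the 32 was -0.07, beside -0.01 over all genes. Comparisons of iNkx2.2 and iSDmut with pMN share the pMN libraries, so their values are set side by side without an overlap count. Against pMN, edgeR called 5 of 32 members in iSDmut, beside 3.54% of genes (1.90% higher, 1.64% lower). Frzb was higher, and Sfrp2, Fzd10, Fzd7 and Dkk1 were lower. Without pMN library 1, 2 or 3, edgeR called 2, 3 and 2 members for iSDmut, beside 1.09%, 1.61% and 2.03% of all genes. These were Frzb and Sfrp2 each time, and Wnt5a in addition without library 2.

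Among ligands, Wnt4 was at 2.06, 2.97 and 3.30 CPM in pMN and 7.02, 7.21 and 10.1 CPM in iNkx2.2. The groups did not overlap, as for 31.4% of all genes tested (log2 fold change 1.54, SE 0.35, edgeR adjusted p 0.0260). In iSDmut it was at 1.4 and 3.58 CPM, on either side of the pMN range (-0.14, edgeR adjusted p 0.877). Wnt7a was at 19.0, 15.3 and 14.1 CPM in pMN and 5.15, 2.37 and 3.21 CPM in iNkx2.2. It fell by 2.146 on the log2 scale (SE 0.41, edgeR adjusted p 0.0140), whereas the iSDmut libraries differed widely from each other, at 19.4 and 6.24 CPM (-0.34, edgeR adjusted p 0.715). Wnt9a was at 2.23, 2.61 and 4.87 CPM in pMN, 5.57, 6.40 and 10.6 CPM in iNkx2.2 and 1.57 and 5.57 CPM in iSDmut. For iNkx2.2 its log2 fold change of 1.20 (SE 0.47) did not pass (edgeR adjusted p 0.146) but did with the replicate number as a block (1.25, edgeR adjusted p 0.0167). The same block added Wnt1 (1.25), Wnt5b (-0.33) and Lrp5 (0.27) to the calls and lost none, giving 12. With this block 29.6% of all genes were called, beside 9.49% without it. Wnt5a and Wnt5b, the other abundant ligands, were at 13.5 to 20.7 and 17.0 to 21.3 CPM in pMN, 11.7 to 13.3 and 13.7 to 18.4 CPM in iNkx2.2, and 22.8 to 27.6 and 11.6 to 14.8 CPM in iSDmut.

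The frizzleds that passed the test all fell. Fzd10, marked by dorsal neural tube expression in embryos, was at 14.4, 19.9 and 15.8 CPM in pMN, 2.10, 2.82 and 3.13 CPM in iNkx2.2 and 5.94 and 7.98 CPM in iSDmut. No pair of groups overlapped. It fell by 2.64 on the log2 scale with wildtype Nkx2.2 (SE 0.23, edgeR adjusted p 0.000308) and by 1.26 with the mutant (SE 0.25, edgeR adjusted p 0.0306). Fzd7, the most abundant frizzled of pMN but below Fzd2 per length in the induced libraries, was at 272, 243 and 251 CPM in pMN, 128, 108 and 115 CPM in iNkx2.2 and 157 and 84.3 CPM in iSDmut. Both induced groups lay below pMN, at a log2 fold change of -1.13 (edgeR adjusted p 0.00861) and -1.08 (edgeR adjusted p 0.0313). Fzd9 was at 22.5, 20.5 and 18.7 CPM in pMN, 7.53, 7.03 and 8.75 CPM in iNkx2.2 and 15.51 and 7.77 CPM in iSDmut. It fell by 1.403 with wildtype Nkx2.2 (edgeR adjusted p 0.00822), and the mutant's value of -0.83 did not pass (edgeR adjusted p 0.123). Fzd2 and Lrp6 had a narrow range, 105 to 134 CPM and 156 to 173 CPM over all 8 libraries. The other 7 receptors had log2 fold changes from -0.27 to 0.42 with wildtype Nkx2.2, none called.

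The antagonists moved in both directions. Sfrp2 was at 92.2, 96.9 and 138 CPM in pMN, 18.9, 17.3 and 22.0 CPM in iNkx2.2 and 19.0 and 23.9 CPM in iSDmut. Both induced groups lay far below pMN, with log2 fold changes of -2.49 (SE 0.18, edgeR adjusted p 0.000134) and -2.34 (SE 0.21, edgeR adjusted p 0.000956). Sfrp1 was at 170, 159 and 152 CPM in pMN, 77.1, 61.2 and 64.1 CPM in iNkx2.2 and 145 and 84.6 CPM in iSDmut. It fell by 1.25 with wildtype Nkx2.2 (edgeR adjusted p 0.00404), and the mutant gave -0.48 (edgeR adjusted p 0.219). Frzb rose from 4.84, 3.16 and 5.33 CPM in pMN to 24.7, 24.0 and 25.8 CPM in iNkx2.2 and to 26.9 and 61.6 CPM in iSDmut. Its log2 fold changes were 2.47 (SE 0.30, edgeR adjusted p 0.00180) and 3.31 (SE 0.32, edgeR adjusted p 0.00140). Dkk1, a co-receptor antagonist, was low throughout, at 1.17, 0.789 and 1.19 CPM in pMN, 0.674, 0.403 and 0.415 CPM in iNkx2.2, and 0 and 0.166 CPM (0 and 4 counts) in iSDmut. The fitted -3.43 for iSDmut (edgeR adjusted p 0.0388) depends on these few counts, and -1.04 for iNkx2.2 did not pass (edgeR adjusted p 0.210). Dkk3 was at 11.4, 14.3 and 20.7 CPM in pMN, 19.95, 20.5 and 24.4 CPM in iNkx2.2 and 3.36 and 10.6 CPM in iSDmut. Sfrp5 was at 2.34, 3.52 and 8.21 CPM, 8.04, 2.19 and 8.30 CPM, and 0.560 and 0.998 CPM in the same groups. Neither passed against pMN, with adjusted p of 0.424 and 0.709 for iNkx2.2 and 0.162 and 0.0932 for iSDmut by edgeR. Sfrp4 had 1 to 23 counts in a library, and Dkk2, Dkk4 and Wif1 were too low to test.

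**Figure D4:**
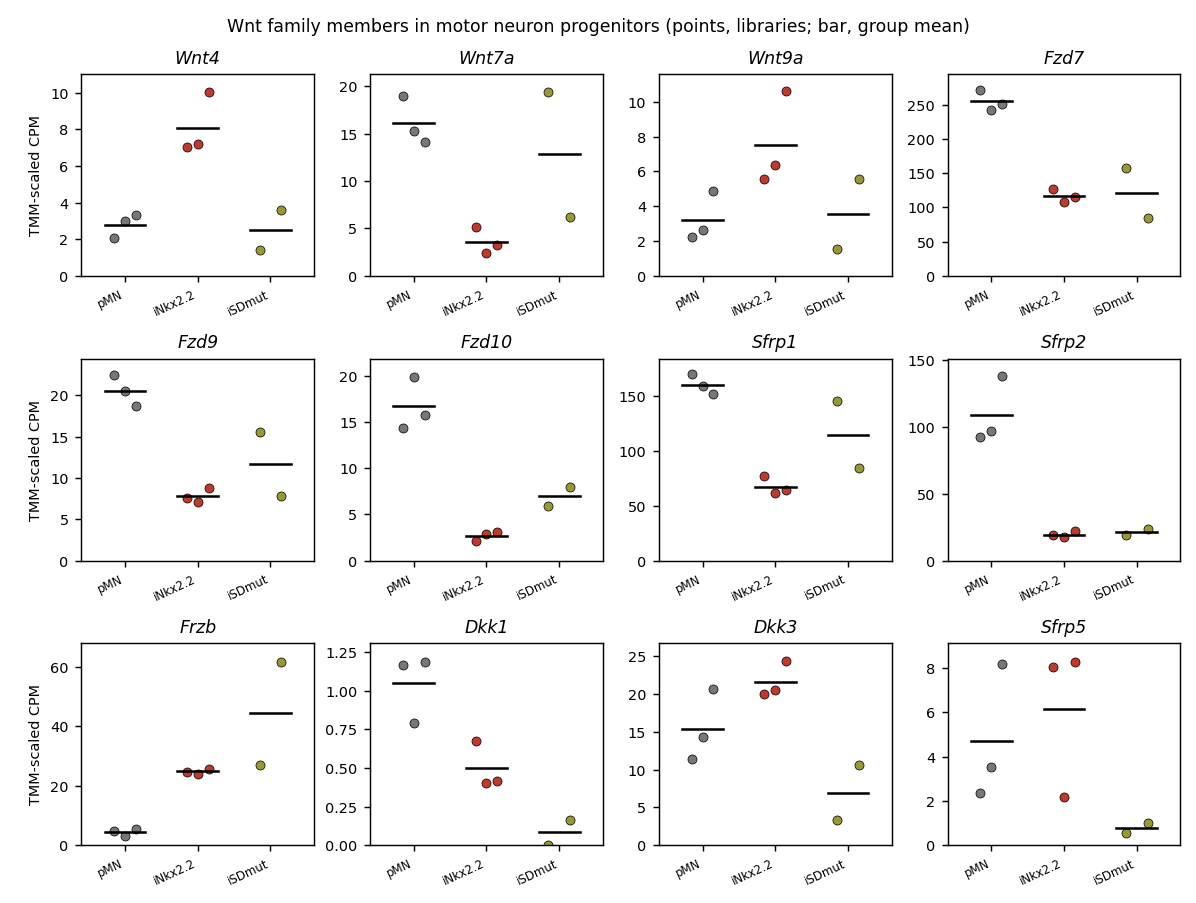
TMM-scaled CPM (y axis, from 0) of 12 members in each progenitor library, by group on the x axis; points are libraries and bars are group means. Sfrp2 is at 17.3 to 23.9 CPM in all induced libraries and at 92.2 CPM or more in pMN, and the iSDmut libraries lie far apart for Wnt7a, Frzb and Sfrp1.

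Cell identity markers moved with these groups. The 4 pMN markers summed to 561 to 673 CPM in pMN, 189 to 306 CPM in iNkx2.2 and 210 to 334 CPM in iSDmut, and 5 floor plate markers to 331 to 419, 457 to 580 and 239 to 381 CPM. The 3 mesoderm markers summed to 6.79 to 9.28, 7.04 to 8.49 and 1.90 to 3.87 CPM. The 4 motor neuron markers summed to 44.3 to 101 CPM in pMN, 28.8 to 61.4 CPM in iNkx2.2 and 71.5 to 91.0 CPM in iSDmut, and the 3 pluripotency markers to 3.09 to 7.77, 2.78 to 8.06 and 0.168 to 1.79 CPM, with 2 of 3 at 0 in iSDmut 1. The 3 markers of p3 progenitors summed to 75.5 to 109, 345 to 384 and 255 to 261 CPM. That sum includes the induced gene Nkx2-2 itself, at 5.40 to 11.6, 343 to 378 and 245 to 248 CPM. Its rise was therefore set by the induction and does not show that the other p3 markers rose. No pMN or floor plate marker was at 0, and the part of these markers in the member values was not tested. Within sequencing lane 2, which holds 2 pMN and 2 iNkx2.2 libraries, 9 members were called for iNkx2.2, beside 6.42% of all genes.

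The direct comparison of the mutant with wildtype Nkx2.2 gave 0 called members of 32 by edgeR, beside 0.281% of genes (0.160% higher, 0.121% lower). An unadjusted p under 0.05 was found for 11 members, beside 12.5% of all genes, and DESeq2 called 7, beside 2.95%. Fzd10 had the smallest p, with iSDmut higher by 1.39 on the log2 scale (SE 0.25, edgeR adjusted p 0.0666). Wnt5a was at 13.3, 13.2 and 11.7 CPM in iNkx2.2 and 27.6 and 22.8 CPM in iSDmut (0.98, edgeR adjusted p 0.0886). The groups did not overlap for 15 of 32 members, beside 31.9% of all genes tested. Among these, Wnt4 (-1.68), Sfrp5 (-2.96), Dkk3 (-1.61) and Dkk1 (-2.40) had lower values in both iSDmut libraries, and Wnt7a (1.81), Sfrp1 (0.77) and Frzb (0.84) higher values in both. Wnt9a (-1.05) was separated only nominally, with 134 counts in iSDmut 2 and 273 in iNkx2.2 1 giving nearly equal CPM. Wnt7b was at 2.47, 2.37 and 3.51 CPM in iNkx2.2 and 0.560 and 1.75 CPM in iSDmut (-1.23), and Sfrp4 at 0.470, 0.448 and 0.302 against 0.280 and 0.125 CPM (-1.06). The 2 iSDmut libraries differed from each other for several of these genes, with Wnt7a at 19.4 and 6.24 CPM and Wnt4 at 1.4 and 3.58 CPM. Over 9 alternative fits the log2 fold change ranged from -2.53 to -1.18 for Wnt4, 0.77 to 2.41 for Wnt7a and -2.68 to -1.03 for Dkk3. Without the second iSDmut library, which ran in another lane, more members and more of all genes were called. That fit leaves 1 iSDmut library. In the authors' deposited table of progenitors 7 members are listed, and Fzd10 is called lower in iNkx2.2 than in iSDmut, at -1.46.

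Against pMN, the authors' deposited table calls 7 members for iNkx2.2, all called here, where Wnt4 was called in addition. For iSDmut it calls 5, of which 4 were called here; Fzd9 is called in the authors' deposited table and Dkk1 here.

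Of the 68 other pathway genes, 62 were tested in progenitors and edgeR called 10 for iNkx2.2 (16.1%, beside 9.49% of all genes), 7 higher and 3 lower. DESeq2 called 11, beside 14.5% of all genes. Wls, which carries Wnt proteins to the cell surface, rose from 103, 136 and 131 CPM to 209, 248 and 242 CPM (log2 fold change 0.92, edgeR adjusted p 0.0142). It was also the 1 gene edgeR called for iSDmut, at 193 and 311 CPM (1.03, edgeR adjusted p 0.0231). For that comparison 12 had an unadjusted p under 0.05 and DESeq2 called 6, beside 20.2% and 8.82% of all genes. Among the called extracellular modulators were Sost (1.38), Draxin (1.18), Shisa2 (0.81) and Shisa3 (1.43), which rose. Sost, an Lrp5 and Lrp6 antagonist known from bone, was at 2.06, 1.82 and 2.201 CPM in pMN, 4.80, 6.58 and 4.53 CPM in iNkx2.2 and 2.35 and 2.83 CPM in iSDmut. Draxin, an axon guidance protein and Wnt antagonist, was at 7.79, 9.34 and 12.2 CPM, 22.7, 17.2 and 26.8 CPM, and 10.1 and 11.3 CPM in the same groups. For both, iNkx2.2 lay above all other libraries. Vangl1, a planar polarity protein, fell by 0.74 from 66.7 to 78.2 CPM in pMN to 41.2 to 46.8 CPM in iNkx2.2 (edgeR adjusted p 0.00345). The ubiquitin ligases that remove frizzleds moved apart: Rnf43 rose by 1.22 (edgeR adjusted p 0.0309) and Znrf3 fell by 0.46 (edgeR adjusted p 0.0314). Between iSDmut and iNkx2.2 edgeR called 0 of 62 (11 with an unadjusted p under 0.05, DESeq2 6), beside 0.281% of all genes (12.5% unadjusted, DESeq2 2.95%).

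In embryonic pancreas no member separated SDmut from control embryos. Of 31 members tested edgeR called 0, with 0 at an unadjusted p under 0.05, and DESeq2 called 0. Over all 18723 genes edgeR called 0.00534% and DESeq2 0.134%, and 2.54% had an unadjusted p under 0.05 by edgeR. The median log2 fold change of the 31 was -0.11, beside 0.01 over all genes. Values varied strongly among embryos of either genotype. Sfrp2 was at 32.5, 126 and 99.9 CPM in controls and 75.0, 155, 34.3 and 49.5 CPM in SDmut embryos, and Sfrp1 at 126, 278 and 256 CPM and 209, 245, 112 and 118 CPM. The embryos with high Sfrp1 and Sfrp2 (controls 2 and 3, SDmut 1 and 2) were also those with the highest sums over 10 mesenchymal markers, 10895 to 16007 CPM, against 5902 to 7278 CPM in the other 3. Dkk2 was at 9.40, 16.0 and 22.9 CPM in controls and 13.8, 26.9, 8.82 and 10.0 CPM in SDmut embryos. Control 3 and SDmut 2 also carried skeletal muscle transcripts, 6253 and 7162 CPM over 10 markers against 67.3 to 162 CPM in the others. Without these 2 embryos edgeR again called 0 members. The 7 beta-cell markers summed to 484 to 1095 CPM in controls and 209 to 340 CPM in SDmut embryos, without overlap. The 10 acinar markers overlapped, at 12614 to 31217 CPM in controls and 13764 to 39093 CPM in SDmut embryos. The part of the tissue sampled and of these cell types in the member values was not tested.

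Ligands of embryonic pancreas overlapped between the genotypes throughout. Wnt4 was at 20.4, 27.8 and 20.3 CPM in controls and 19.0, 21.1, 18.8 and 19.1 CPM in SDmut embryos (log2 fold change -0.23, SE 0.14, edgeR adjusted p 1.00). Wnt2b, a mesenchymal ligand, was at 17.6, 20.3 and 22.9 CPM against 33.1, 24.5, 15.7 and 11.3 CPM, and Wnt7b at 26.1, 25.5 and 18.8 CPM against 19.9, 15.9, 27.1 and 24.2 CPM. Wnt9a, the ligand with the largest change in betaSDmut islets, was at 8.67, 9.48 and 12.3 CPM in controls and 11.1, 12.4, 5.24 and 5.57 CPM in SDmut embryos. Among receptors, Fzd2 was at 73.2, 107 and 132 CPM against 105, 117, 68.0 and 81.0 CPM. Lrp5 was at 157, 160 and 207 CPM against 181, 167, 148 and 157 CPM. Lrp6 had the smallest p of all members, at 206, 226 and 221 CPM in controls and 171, 171, 209 and 209 CPM in SDmut embryos (log2 fold change -0.20, SE 0.11, unadjusted p 0.111 by edgeR). The largest fitted fold change, -1.36 for Wif1 (SE 1.15), came from 0.509, 0.420 and 7.94 CPM in controls and 0.955, 2.72, 0.294 and 0.607 CPM in SDmut embryos. Frzb varied widely, from 1.21 to 23.9 CPM among SDmut embryos and from 3.92 to 16.2 CPM among controls. Of the 68 other pathway genes 63 were tested, with 0 called by edgeR, 0 at an unadjusted p under 0.05 and 0 called by DESeq2. The authors' deposited table for this tissue lists 35 members and calls 0.

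**Figure D5:**
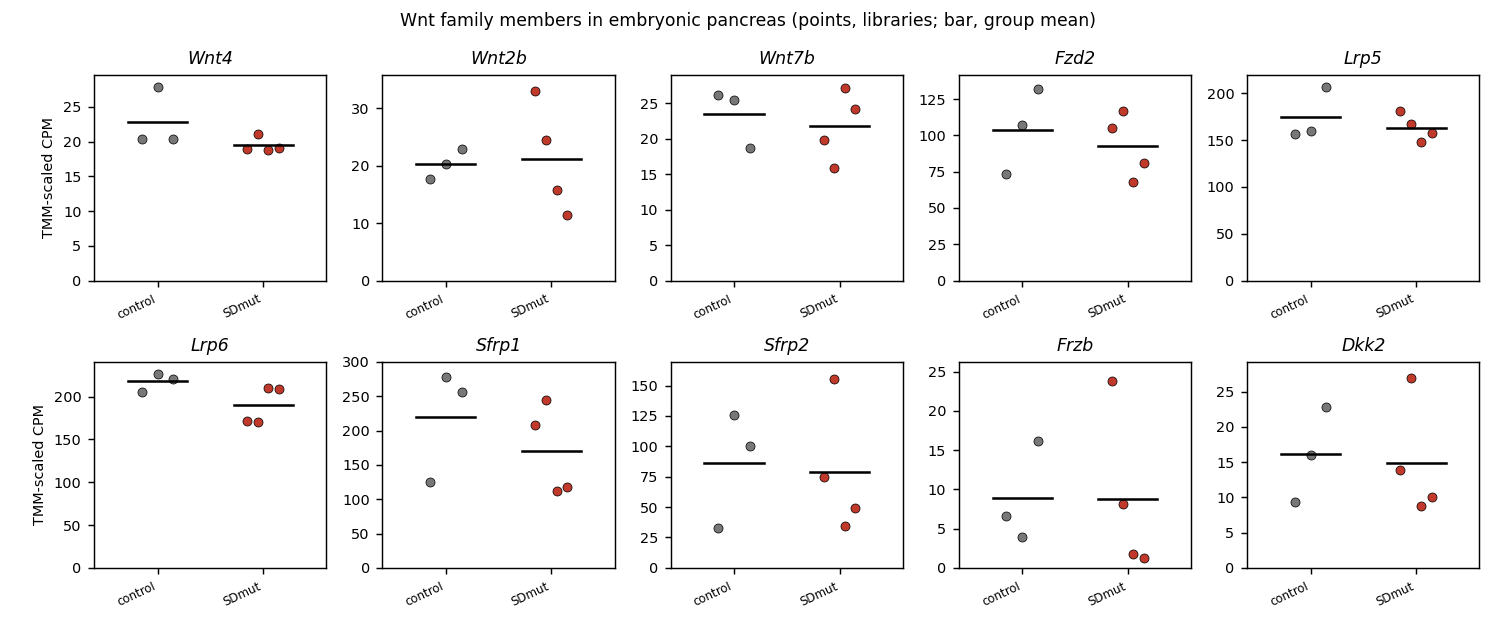
TMM-scaled CPM (y axis, from 0) of 10 members in each embryonic pancreas library, by genotype on the x axis; points are libraries and bars are group means. The genotypes overlap for every member shown, and Sfrp2 spans 32.5 to 155 CPM over the 7 embryos.

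The remaining members were tested in some comparisons or in none. Wnt8a, Wnt8b, Wnt9b, Wnt10a, Wnt16 and Dkk4 passed the low-count filter in none of the comparisons and stayed below 0.50 CPM in every library. Wnt3, Wnt6, Wnt7b and Wnt10b were too low to test in islets. Wnt2 was tested in embryonic pancreas alone and Wnt1, Wnt3a, Wnt7a and Dkk1 in progenitors alone. Wif1, which binds Wnt ligands through a domain of its own, was tested in embryonic pancreas alone.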

How the data were processed

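RNA-seq counts per gene were deposited by the authors without normalization, and FPKM values for islets and progenitors were deposited beside them. STAR, Cufflinks, DESeq2, edgeR 3.20.9, limma 3.34.9, bedtools 2.17.0 and mm10 are listed in the submitters' processing notes, without roles, and use of strand is not given in the sources used here. Exons of Fzd5, Fzd6, Sfrp2, Wnt5a, Wnt7b and Wnt11 overlap opposite-strand genes, whose reads cannot be told apart. The log2 fold changes, p-values and calls of the authors' deposited tables were copied, not recomputed. ChIP-seq files deposited by the authors hold counts at events and log2 CPM values of final sites.

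The main tests used edgeR 4.0.16 under R 4.3.3 (TMM, filterByExpr, robust quasi-likelihood fit and F-test), Benjamini-Hochberg adjusted at 0.05 over all genes tested. SE was derived from the log2 fold change and its F statistic (their ratio, with F under a square root). Embryonic and islet comparisons used their own groups, the difference of islet effects 9 libraries, progenitors 8 libraries in a model of 3 groups. Named in full are called members, the 3 most abundant per role and tissue, and members with a log2 fold change of at least 1 without overlap. Members and lists were chosen with earlier results of these data known. The main fits were unpaired. Replicate numbers, from the titles, were taken as pairs only in the block alternative, in progenitors and, within each age, in islets. Correlations of deviations were 0.561, 0.548 and 0.584 for pMN with iNkx2.2 and lower for the other pairs of groups. Alternatives were RLE factors, DESeq2 1.42.0, no filter, blocks, a single lane, leaving libraries out and reference gene lengths. Fits were tested on simulated counts. Motifs and positions used Python 3.11.15 with GRCm38. The input library of the ChIP-seq was not used here.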

Additional observations from a re-analysis of the deposited data

Results flagged for a closer look

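In SDmut embryo 2, 3 members lay apart from the other 3 SDmut embryos by Dixon's criterion at 95%. Fzd10 was at 5.09 CPM against 0.516 to 1.11 CPM, Sfrp5 at 3.15 CPM against 1.08 to 1.19 CPM and Wnt4 at 21.1 CPM against 18.8 to 19.1 CPM. Of the 31 members examined 3 met the criterion, and chance alone gives about 1 in 20. The same embryo held 7162 CPM of skeletal muscle markers, whose part was not tested.

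The islet effects of betaSDmut at 8 weeks and of the libraries labelled betaKO at 4 weeks differed for 3 members by edgeR's test of the difference. The differences in log2 fold change were 2.39 for Fzd6, 4.55 for Sfrp2 and 2.62 for Wnt9a, and age and genotype cannot be told apart in them.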

How the results depend on the processing

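Of 39 described member results under 376 alternatives, 312 kept direction and side of the threshold, 45 lost the call, 19 gained it and 0 reversed. DESeq2 called 5 members for the difference of islet effects, 9 for iSDmut against pMN and 7 for iSDmut against iNkx2.2. Its shares over all genes were 4.06%, 8.82% and 2.95%. No count filter gave 3 for iSDmut against iNkx2.2, beside 0.569% of all genes. With the replicate block, counts were 1 for the difference of islet effects, 10 for iSDmut against pMN and 4 for iSDmut against iNkx2.2. The shares over all genes were 0.544%, 16.8% and 3.37%, beside 1.21%, 3.54% and 0.281% in the main fits. The replicate block paired equal replicate numbers across all progenitor groups and, within each age, in islets. Correlations of deviations were 0.376 and 0.0540 for pMN with iSDmut and 0.334 and 0.108 for iNkx2.2 with iSDmut. In islets they were -0.126 to -0.0390, so the labels and these values give little ground for pairs there. Leaving out 1 library at a time gave 1 to 5 members at 8 weeks, 0 to 3 for the difference of islet effects, 6 to 8 for iNkx2.2 and 2 to 5 for iSDmut against pMN, and 0 to 6 for iSDmut against iNkx2.2. DESeq2 moved the wider pathway's calls from 5 to 12 at 8 weeks and from 1 to 6 for iSDmut against pMN. Over all genes the shares moved from 7.94% to 13.2% and from 3.54% to 8.82%. The causes of these shifts were not tested. Fewer libraries enter the fits that leave 1 out, and calls over all genes moved there too. DESeq2 used the same libraries as edgeR. With reference gene lengths, 26 of 27 leading members per role in islets and pMN stayed among the first 3. Depth limits members with few counts, such as Sfrp4, Dkk1 and Wnt11. Fits that leave 1 library in a group assume that it varies like the others.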
